A study of Mus musculus with 16 samples.

Results

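The genes described here are 10 members of the BCL2 family that set survival at the mitochondrion or mark it for removal: the pro-survival genes *Bcl2*, *Bcl2l1* (BCL-XL), *Bcl2l2* (BCL-W) and *Mcl1*, the BH3-only genes *Bcl2l11* (BIM), *Bad* and *Bid*, the pore-forming effector *Bak1*, and the mitophagy receptors *Bnip3* and *Bnip3l* (NIX). They were taken by symbol, and all 10 were found among the 29453 genes of the single-cell RNA-seq matrix of mouse chimeras in which *Stat3* null cells and wild-type (WT) cells developed side by side. ESCs lacking *Stat3* and carrying a tdTomato reporter were injected into WT CD1 blastocysts, and the embryos were dissociated at 3 stages (E7.5, E8.5, E9.5) and sorted into tdTomato-positive donor cells (null) and tdTomato-negative host cells (WT) for 10x 3′ libraries. The 16 libraries comprised, for each genotype, 2 of E7.5, 2 of E8.5 and 4 of E9.5, and are lettered A to D within each group.

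The null cells were sorted as descendants of donor ESCs in which exons 20 to 22 of *Stat3* were replaced by a neomycin resistance cassette. Donors and hosts shared the CD1 background. The donor ESCs stood for the genotype as a whole, and no reporter-carrying WT donor was compared here, so *Stat3* genotype, ESC origin and tdTomato cannot be told apart. Null and WT cells of an embryo shared that embryo, embryos were pooled at the 2 earlier stages, and by the study's account the E9.5 libraries came from fewer embryos than libraries, so the p-values measure only the spread between these libraries, part of which may be technical. *Stat3* stood at 1.16 to 2.53 counts per 10⁶ UMIs (CPM) in the 8 null libraries and at 6.14 to 9.31 CPM in the 8 WT libraries, with no overlap, although a 3′ tag lies downstream of the deleted exons and does not test the deletion itself.

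After removal of 3395 doublet calls and of 596 WT cells with a tdTomato UMI, 37841 cells remained, 360 to 4327 per library, with 20682659 to 138613245 UMIs per library. E9.5 WT C and D shared 375 cell barcodes, whereas no other pair of libraries shared more than 12. Of the 325 shared barcodes that were singlets in both, 3.08% carried the same cell type in both, beside the 3.15% that the make-up of the libraries gives, and results with E9.5 WT libraries were also obtained without these barcodes. In E8.5 null B, 72.3% of cells had a tdTomato UMI, the lowest share of the null libraries. Of the transferred cell type labels of the blood lineage, Erythroid cells ranked first for the summed erythroid markers (8 of 8 above the median cell type). Blood progenitors had 6 of 6 of their markers above the median type but stood at 1088 CPM for their sum, below the 1233 CPM of Megakaryocyte progenitors. Haematoendothelial progenitors ranked 5th for their own markers, at 939 CPM against 1734 CPM in Embryo proper endothelium.

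Pro-survival BCL2 proteins hold BAX and BAK1 in check at the mitochondrial outer membrane, BH3-only proteins oppose them, and freed BAX or BAK1 opens the membrane, which releases cytochrome c and starts the caspase cascade. BNIP3 and NIX are atypical BH3 proteins that tether mitochondria to the autophagy machinery, and NIX is best known for the clearance of mitochondria from maturing red cells. *Bcl2l1* is a survival factor of erythroid cells and has been described as a target of STAT signaling and of GATA1 in that lineage, whereas *Bnip3* is a classical target of hypoxia-inducible factors.

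The members lie on 8 chromosomes of GRCm38 (GENCODE M21). *Bcl2* spans chr1:106538178-106714274 and *Bcl2l1* chr2:152780668-152831728, both on the minus strand, *Mcl1* lies at chr3:95658788-95663176 on the plus strand, *Bnip3* at chr7:138890836-138909519 and *Bnip3l* at chr14:66985239-67008877, both on the minus strand. *Bcl2l2* (chr14:54883377-54888234, plus strand) overlaps *Gm20521* on the same strand, which has its own entry in the matrix, so the reads counted for *Bcl2l2* are uncertain. The RefSeq table of start sites (GRCm38.p6) gave 13 promoter windows for 9 of the members, each of 300 bases, from 250 before to 50 after a start; *Bnip3l* was not among them. A STAT motif, spelled TTCNNNGAA, was found on either strand in 0 of the 13 windows, beside 8.30% of 32851 windows in the table. The GATA motif AGATAA was found in 1, at a start of *Bcl2l1* (11.2% of all windows), and the hypoxia response element core ACGTG in 1, at the start of *Bnip3* (19.6%). Both are shown because these genes carry, among the members, the largest genotype estimate in Erythroid cells of E8.5 and the largest fall in whole libraries between E8.5 and E9.5. They were thus picked by values of these same data, and the part of the motifs in those values was not tested. The *Bnip3* window, chr7:138909457-138909756, and the *Bcl2l1* window, chr2:152828440-152828739, are written on the minus strand with the motif letters in capitals. In the *Bnip3* window the capitals mark the palindrome CACGTG, which holds the core on both strands in overlapping positions.
Bnip3: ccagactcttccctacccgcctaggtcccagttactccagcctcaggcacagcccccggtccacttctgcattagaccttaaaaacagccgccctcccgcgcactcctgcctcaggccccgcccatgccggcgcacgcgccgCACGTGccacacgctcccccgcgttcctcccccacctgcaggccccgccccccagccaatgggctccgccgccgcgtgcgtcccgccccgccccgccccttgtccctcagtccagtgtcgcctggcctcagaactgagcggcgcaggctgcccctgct
Bcl2l1: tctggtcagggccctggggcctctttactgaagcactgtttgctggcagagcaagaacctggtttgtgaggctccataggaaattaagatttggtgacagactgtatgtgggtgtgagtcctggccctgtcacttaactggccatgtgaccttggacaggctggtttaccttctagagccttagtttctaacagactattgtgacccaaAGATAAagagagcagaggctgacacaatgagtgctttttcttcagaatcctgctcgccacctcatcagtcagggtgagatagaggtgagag
A match of letters is not a measured binding site, and the absence of a match says nothing on regions outside these windows.

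*Bnip3l* and *Mcl1* gave the most UMIs of the 10 genes in each of the 16 libraries and *Bcl2l2* the fewest. In the WT libraries of E7.5, E8.5 and E9.5, *Bnip3l* averaged 287 ± 15.8, 294 ± 1.37 and 203 ± 5.44 CPM (SD, n = 2, 2 and 4) and *Mcl1* 155 ± 3.41, 122 ± 0.0433 and 138 ± 2.95 CPM. *Bcl2l2*, another guardian of the outer membrane, was at 4.00 ± 0.127, 3.02 ± 0.0769 and 4.62 ± 0.395 CPM. Each UMI here is a 3′ tag of a transcript, so that shares among the genes are shares of tagged transcripts without a correction for length.

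**Figure D1:**
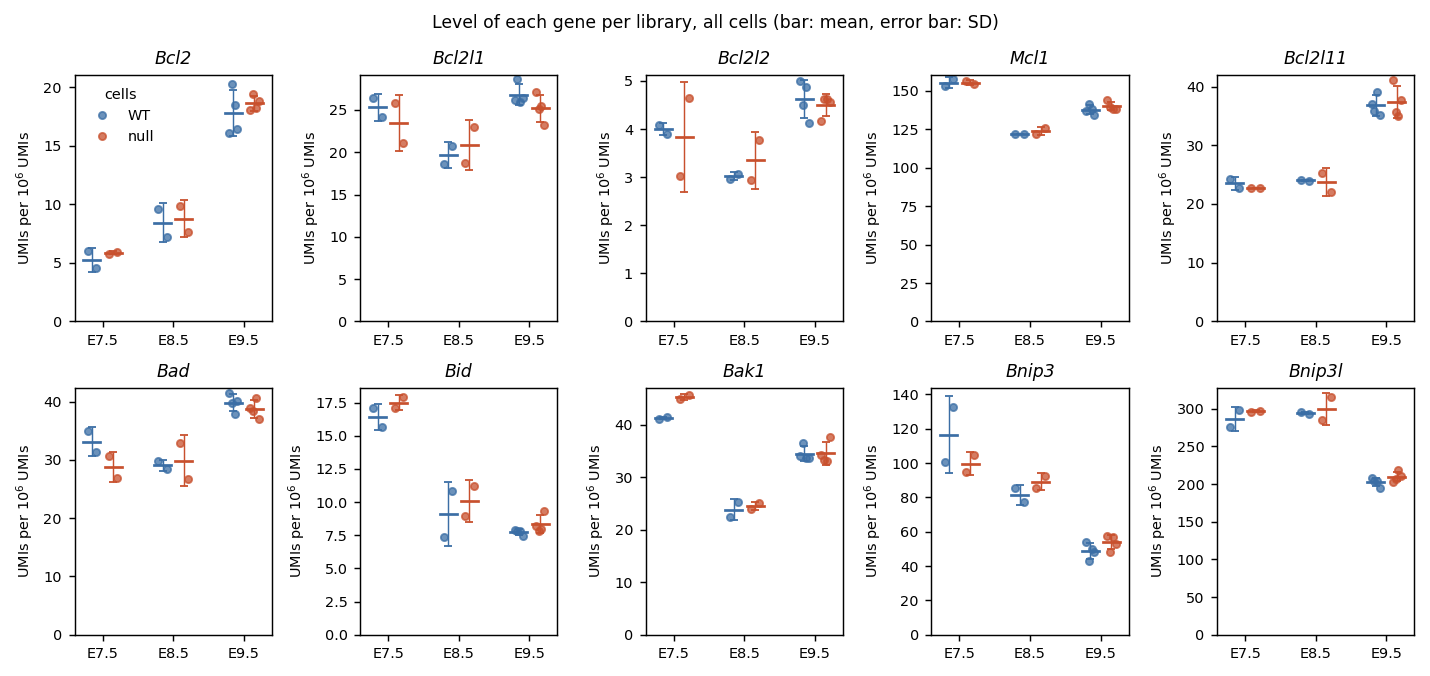
Levels of the 10 genes in CPM (y axis) in each of the 16 libraries, with a point per library, WT in blue and null in red, a bar at the group mean and an error bar of 1 SD, by stage (x axis). No gene was called between WT and null at any stage, *Bnip3* falls from 81.3 CPM (mean of WT, E8.5) to 48.8 CPM (E9.5), and *Bcl2* rises from 8.45 to 17.8 CPM.

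The first question was whether cells without *Stat3* differed in these genes from the WT cells around them. They did not pass the test for any member in whole libraries, and the fold changes were small. With all 16 libraries in a fit with stage as a term, edgeR's quasi-likelihood test called 0 of the 10 members at an adjusted p (Benjamini-Hochberg) under 0.05, beside 2.96% of the 15152 genes tested, and 0 of the 10 had an unadjusted p under 0.05 (16.9% of all genes did). A whole-library value cannot tell fewer cells of a type apart from less RNA per cell.

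Among the pro-survival genes, the log2 fold change of null over WT over all stages was 0.02 (95% interval -0.02 to 0.07) for *Mcl1*, which protects cells with a short-lived protein, and -0.05 (-0.15 to 0.06) for *Bcl2l1*. *Bcl2* gave 0.09 (-0.08 to 0.26) and *Bcl2l2* -0.00 (-0.19 to 0.18). None of these intervals reached 1 on the log2 scale in either direction.
The intervals of the BH3-only genes and the effector also did not reach 1 in either direction. *Bcl2l11*, which codes for a direct activator of BAX and BAK1, was at 0.00 (-0.08 to 0.08), *Bad*, whose protein is kept inactive by survival kinases, at -0.05 (-0.15 to 0.05), *Bid*, which links death receptors to the mitochondrion, at 0.11 (-0.03 to 0.26) and *Bak1* at 0.05 (-0.03 to 0.13). *Bnip3* was at 0.05 (-0.10 to 0.20) and *Bnip3l* at 0.05 (-0.02 to 0.11).

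Taken by stage, 0 of the 10 members were called at E7.5 (2.92% of all genes tested were), 0 at E8.5 (0.0278%) and 0 at E9.5 (1.21%), again with no member at an unadjusted p under 0.05, beside 12.9%, 4.56% and 10.3% of all genes. The estimates ran from -0.18 (*Bnip3*) to 0.21 (*Bcl2*) at E7.5, from -0.04 (*Bcl2l11*) to 0.12 (*Bid*) at E8.5 and from -0.09 (*Bcl2l1*) to 0.14 (*Bnip3*) at E9.5. DESeq2 called 0 members in each of these fits. *Bak1* at E7.5 was 41.2 and 41.5 CPM in the WT libraries and 44.9 and 45.7 CPM in the null libraries. Both null values lay above both WT values, but the difference was not called. With 2 libraries a side, the groups were also apart for *Bad* at E7.5 (34.9 and 31.4 CPM in WT, 30.6 and 26.98 CPM in null) and for *Bnip3* at E8.5 (85.3 and 77.2 CPM in WT, 85.7 and 92.7 CPM in null). So were *Bid* at E7.5 (17.1152 and 15.7 CPM in WT, 17.1235 and 17.9 CPM in null) and *Mcl1* at E8.5 (121.8 and 121.8 CPM in WT, 122.3 and 125.7 CPM in null), and none of these genes was called. With so few libraries such a separation is common without any difference, and its share over all genes was not counted. In the E7.5 libraries the ExE ectoderm markers ranged from 115 to 120 CPM in null and from 391 to 563 CPM in WT, and the visceral endoderm markers from 7.49 to 11.8 CPM and from 480 to 571 CPM. No member was called at E7.5 without blood and extra-embryonic types or under any other alternative, and *Bak1* ranged from 0.06 to 0.22 over all settings. Beyond that the part of these cells in the E7.5 values was not tested. The genotype effect did not differ between E8.5 and E9.5 for any member beyond the test (0 of 10 called, 0.0321% of all genes).

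**Figure D2:**
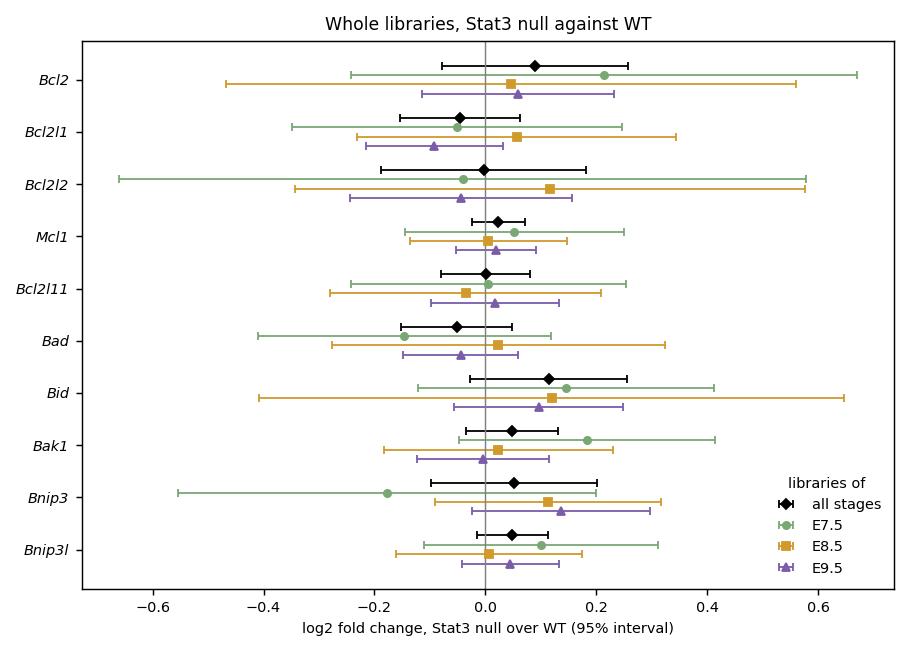
Log2 fold change of null over WT (x axis) with its 95% interval for each of the 10 genes, from whole libraries of all stages and of each stage. The intervals over all stages include 0 for every gene, that of *Mcl1* reaching from -0.02 to 0.07.

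Within cell types, where the shares of the labeled types no longer enter, no member was called either. States of cells within a label may still differ between libraries. The test took types that had over 15 cells in 2 or more libraries per genotype, and a call needed an adjusted p under 0.05 and an absolute log2 fold change over 1. At E7.5, 0 of 64 pairs of a member and a cell type were called in 7 types (0.186% of all pairs of a gene and a type were), and 2 had an unadjusted p under 0.05. At E8.5 it was 0 of 170 in 20 types (0.0609%), with 9 at an unadjusted p under 0.05, and at E9.5 it was 0 of 328 in 37 types (0.12%), with 22. Over all genes, 4.06%, 4.32% and 6.26% of pairs had such a p at the 3 stages, close to the members' 3.13%, 5.29% and 6.71%. DESeq2 called 0 pairs at each stage.

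*Bcl2l1* held the lowest adjusted p at both E8.5 and E9.5. In Erythroid cells of E8.5 it was 15.4 and 13.0 CPM in WT A and B (504 UMIs in 1048 WT cells, both libraries together) and 9.15 and 7.95 CPM in null A and B (265 UMIs in 725 null cells). Both null libraries were below both WT libraries, but the log2 fold change of -0.74 (SE 0.24, 95% interval -1.30 to -0.19) had an adjusted p of 0.438 with edgeR over all genes of the cell type, and over the alternatives the adjusted p ranged from 0.0753 to 0.906. The erythroid markers, mostly embryonic globins, summed to 205025 and 128092 CPM in these WT cells and to 188478 and 91735 CPM in the null cells, so the lowest sum was that of null B. Some marker lists of other blood and vessel types were higher in both null libraries than in both WT libraries. These were Blood progenitors (355.1 and 447 against 269 and 345 CPM), Haematoendothelial progenitors, which share genes with them (282 and 323 against 202 and 253 CPM), and endothelium (71.7 and 93.2 against 44.2 and 62.9 CPM). Markers of Megakaryocyte progenitors (22.4 and 28.0 against 14.2 and 26.1 CPM) and of erythro-myeloid progenitors (28.1 and 77.3 against 18.6 and 45.1 CPM) overlapped. The markers of maternal blood and macrophages, adult globins among them, were lower in both null libraries, at 382 and 544 against 618 and 572 CPM. The part of these differences in the *Bcl2l1* value was not tested. A tdTomato UMI was seen in 69.7% of the Erythroid cells of null A and in 37.4% of those of null B. In the cells that had it *Bcl2l1* was 9.29 and 9.77 CPM (163 and 20 UMIs), again below both WT libraries. In those without it the level was 8.79 and 6.70 CPM (62 and 20 UMIs), so both values of null B rest on few UMIs. The other members with a test in E8.5 Erythroid cells lay between -0.25 (*Bad*) and 0.59 (*Bcl2l2*), none of them called, and *Mcl1* was at -0.04 (95% interval -0.31 to 0.22).

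At E9.5 the null Erythroid cells were too few for the test. The 4 null libraries held 19 of them, with 460855 UMIs, against 380 in the WT libraries. Pooled over those 19 cells, *Bcl2l1* had 13 UMIs or 28.2 CPM (exact Poisson 95% interval 15.02 to 48.2), against 168 UMIs or 15.1 CPM (12.9 to 17.5) in WT Erythroid cells. *Bnip3l* had 110 UMIs, *Mcl1* 52, *Bnip3* 19, *Bad* 11, *Bcl2l11* 9, *Bak1* 7, *Bid* 2 and *Bcl2* 1, and *Bcl2l2* had 0, which allows up to 6.51 CPM. Intervals and limits of this kind cover counting error only, and RNA free in the droplets was not subtracted.

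In Hindbrain neural progenitors of E9.5, *Bcl2l1* was 21.2, 30.8, 34.1 and 32.97 CPM in WT A to D and 18.6, 14.6, 18.1 and 25.5 CPM in null A to D. The groups overlapped through WT A and null D, and the log2 fold change of -0.60 (SE 0.20, 95% interval -1.0002 to -0.20) had an adjusted p of 0.273 with edgeR. *Bcl2l1* estimates lay below 0 in 27 of 37 types at E9.5, with a median of -0.10, but in 6 of 20 types at E8.5, with a median of 0.07. Such a lean was also seen in other members at E9.5. *Bid* was above 0 in 19 of 22 types (median 0.18) and *Bnip3* in 26 of 37 (0.09). *Bcl2l11* was below 0 in 26 of 37 (-0.02). The median over all genes was -0.00 at E9.5 and 0.00 at E8.5. The types share libraries, and such leans over all genes were not counted. *Mcl1* stayed between -0.16 and 0.37 over the same 37 types.

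An absolute log2 fold change over 1 was reached in 4 pairs, none of them called: at E8.5 *Bcl2* in Thyroid primordium and *Bid* in Limb mesoderm (1.09, adjusted p = 0.998, edgeR), and at E9.5 *Bcl2* in EMP (erythro-myeloid progenitors) and in Thyroid primordium (1.23, adjusted p = 0.992). In Thyroid primordium, *Bcl2* was 42.7 and 26.5 CPM in WT and 104 and 51.8 CPM in null libraries, without overlap, for a log2 fold change of 1.31 (adjusted p = 0.640, edgeR). In EMP it was 4.15, 10.2, 9.61 and 4.17 CPM in WT and 14.4 and 18.4 CPM in the null libraries with enough cells, again without overlap, for 1.28 (adjusted p = 0.413, edgeR). Calls in Thyroid primordium came only from fits that left 1 null library in the type, so each rests on that library. These were E8.5 *Bcl2* without null B (1.58), E8.5 *Bnip3* without null A (1.78) and E9.5 *Bcl2* without null A (2.07). At E9.5 *Bcl2* was there 20.1, 20.7 and 22.4 CPM in WT but 10.6 and 89.1 CPM in the null libraries, which lay on either side of the WT values.

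The second question was how the genes moved with stage, asked first in WT cells. *Bnip3* and *Bnip3l* fell and *Bcl2* rose between E8.5 and E9.5, and *Mcl1* did not pass the test, though it did under some alternatives. Stage and the handling of the libraries of a stage cannot be told apart in this design, and the comparisons of E8.5 with E7.5 and of E9.5 with E8.5 share the E8.5 libraries. The median ribosomal share of UMIs per cell was 25.9% to 26.9% in E8.5 libraries and 21.6% to 23.2% in E9.5 libraries, and its part in what follows was not tested.

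*Bnip3* in whole WT libraries was 101 and 132 CPM at E7.5, 85.3 and 77.2 CPM at E8.5, and 54.2, 43.1, 49.9 and 48.1 CPM at E9.5. *Bnip3l* was 276 and 298 CPM, then 295 and 293 CPM, then 208, 204, 204 and 195 CPM. *Bcl2* was 5.9995 and 4.53 CPM, then 9.65 and 7.25 CPM, then 16.1, 20.3, 18.5 and 16.4 CPM. All E9.5 libraries lay below all earlier ones for both mitophagy receptors and above all earlier ones for *Bcl2*. In CPM they also lay above all earlier WT libraries for *Bcl2l11*, *Bad* and *Bcl2l2*. The share of all genes apart in this way was not counted.

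Between E8.5 and E9.5, 6 of the 10 members were called in whole WT libraries, at an adjusted p under 0.05 and any fold, beside 41.6% of all genes, so that a call by itself sets these members little apart. Without the shared barcodes it was also 6. *Bnip3* fell by 1.04 on the log2 scale (SE 0.09, edgeR adjusted p = 0.000617) and *Bnip3l* by 0.84 (SE 0.04, adjusted p = 0.000281). *Bid* fell by 0.53 (SE 0.13), and *Bcl2* rose by 0.77 (SE 0.15, adjusted p = 0.00700), *Bcl2l11* by 0.31 (SE 0.06) and *Bak1* by 0.23 (SE 0.07). The *Bak1* call was lost without E8.5 WT A or B, and that of *Bid* without E8.5 WT B, where it was -0.25. The *Bid* call was also lost with equal weight a cell type, where it was -0.13 (limma-trend adjusted p = 0.239). Without blood and extra-embryonic types the calls of *Bcl2l11* (0.16, adjusted p = 0.0620) and *Bak1* (0.18, adjusted p = 0.0532) were lost; Erythroid cells made up 16.3% and 16.7% of the cells in the E8.5 WT libraries and 1.63% to 5.32% at E9.5. The others were not called, with -0.12 for *Mcl1*, 0.15 for *Bcl2l1*, 0.31 for *Bcl2l2* and 0.15 for *Bad*. Equal weight a cell type used CPM of all UMIs without TMM and a limma-trend fit, and the median of all genes moved by 0.16. That fit called these 4 members higher. *Bcl2l1* was at 0.38 (limma-trend adjusted p = 0.00387), *Bcl2l2* at 0.36 (adjusted p = 0.0403) and *Bad* at 0.23 (adjusted p = 0.0114). *Mcl1*, with its direction turned, was at 0.16 (adjusted p = 0.0127). The parts of weighting, scaling and model in these values were not tested. *Bcl2l2* and *Bad* were each called in 2 alternatives, this one included.
*Mcl1* was called lower by DESeq2 (-0.13, adjusted p = 0.0150), with RLE factors (adjusted p = 0.0411, edgeR) and without E9.5 WT B (-0.14, adjusted p = 0.0498). On the scale of CPM of all UMIs, the log2 ratio of the E9.5 to the E8.5 mean lay above the fitted change by 0.30 for each of the 10 members, and that of E8.5 to E7.5 lay below it by 0.16 to 0.18. *Mcl1* went from 122 to 138 CPM (0.18 on the log2 scale) where the fit gave -0.12, *Bad* from 29.1 to 39.8 CPM (0.45 against 0.15) and *Bcl2l1* from 19.7 to 26.8 CPM (0.44 against 0.15). In CPM every E9.5 WT library lay above every E8.5 WT library for these and most other members, called or not. The E9.5 libraries lay below for *Bnip3* (-0.73) and *Bnip3l* (-0.54), whereas *Bid* overlapped. The share of all genes apart in this way was not counted. The total of these levels holds all UMIs, whereas the fits leave out hemoglobin and other filtered genes and scale by TMM, and the source of the gap was not tested.

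In null libraries, a comparison added after the WT values were seen, the same 6 genes were called between E8.5 and E9.5 (40.1% of all genes were), with -0.99 for *Bnip3*, -0.78 for *Bnip3l*, -0.53 for *Bid*, 0.80 for *Bcl2*, 0.38 for *Bcl2l11* and 0.23 for *Bak1*. The null libraries came from the same chimeras as the WT libraries. *Bnip3* was 85.7 and 92.7 CPM in the E8.5 null libraries and 57.4, 48.5, 56.9 and 52.7 CPM at E9.5, without overlap.

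Between E7.5 and E8.5, 3 of 10 members were called in WT libraries, beside 39.3% of all genes. *Bcl2* rose by 0.87 (SE 0.21, edgeR adjusted p = 0.0195), *Bid* fell by 0.68 (SE 0.18, adjusted p = 0.0271) and *Bak1* fell by 0.63 (SE 0.08, adjusted p = 0.00319). *Bak1* was 41.2 and 41.5 CPM at E7.5 and 22.5 and 25.2 CPM at E8.5, and *Bid* was 17.1 and 15.7 CPM and then 7.40 and 10.8 CPM, both without overlap. The *Bid* call was lost without E7.5 WT A, E7.5 WT B or E8.5 WT A (adjusted p from 0.0981 to 0.106) and the *Bcl2* call without E7.5 WT B (0.0877) or E8.5 WT A (0.121). With equal weight a cell type *Bid* (-0.57, limma-trend adjusted p = 0.136) and *Bcl2* (0.06, adjusted p = 0.870) were not called either. *Bnip3* was at -0.36, *Bnip3l* and *Bcl2l11* at 0.20, *Bcl2l1* and *Mcl1* at -0.19, *Bcl2l2* at -0.24 and *Bad* at -0.02, none of them called. Of these, 5 were called in an alternative. With equal weight a cell type, limma-trend called *Mcl1* (-0.50, adjusted p = 0.00364) and *Bad* (-0.42, adjusted p = 0.0358). With edgeR, *Bnip3* was called without E7.5 WT A (-0.56) and *Bnip3l* without E7.5 WT B (0.28). *Bcl2l11* was called in opposite directions. It was at -0.53 (limma-trend adjusted p = 0.0416) with equal weight a cell type and at 0.41 (edgeR adjusted p = 0.0184) without blood and extra-embryonic types. *Mcl1* was also called in the latter (-0.26) and without E7.5 WT A (-0.23). Erythroid cells made up 0.553% and 0.0561% of the cells in the E7.5 WT libraries and 16.7% and 16.3% at E8.5, and the ExE ectoderm markers summed to 391 and 563 CPM and then to 24.99 and 38.7 CPM. The part of these cells in the values was not tested beyond the alternatives given. In null libraries the same 3 genes were called (25.5% of all genes were), with 0.68, -0.72 and -0.80.

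With the cell type held, *Bnip3* and *Bnip3l* made up most of the members called between E8.5 and E9.5. Of 278 pairs of a member and a cell type tested in 31 types of WT cells, 24 were called, 5 higher and 19 lower, beside 3.19% of all pairs (2.17% higher and 1.02% lower). *Bnip3* accounted for 14 of the 19 lower calls and *Bnip3l* for 4. At an adjusted p under 0.05 and any fold, 59 pairs passed, 14 higher and 45 lower, beside 9.64% of all pairs, and 21 of these were *Bnip3* and 22 *Bnip3l*. Without E8.5 WT A the count of calls was 14, the lowest over the leave-outs, and without the barcodes shared by E9.5 WT C and D it was 25 of 276.

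The estimate for *Bnip3* was below 0 in 30 of 31 types, with a median of -1.04, beside 0.01 over all genes. In Cranial mesoderm, *Bnip3* was 99.7 and 98.9 CPM in the E8.5 WT libraries and 35.0, 27.3, 39.4 and 30.6 CPM at E9.5 (log2 fold change -1.81, SE 0.16, edgeR adjusted p = 2.33e-10). In Embryo proper mesothelium it was 101 and 121 CPM and then 37.1, 30.9, 36.5 and 26.3 CPM (-1.90, SE 0.18, adjusted p = 1.88e-08). Neither type had overlapping stages. In 25 of the 31 types every E9.5 WT library lay below every E8.5 WT library, and the share of such pairs over all genes was not counted. Hindbrain floor plate (-1.68) and Sclerotome (-1.58) were also called. The *Bnip3* calls in the types named so far and in Migratory neural crest held in every alternative run. Each of the other *Bnip3* calls was lost in 1 or more alternatives. The most losses were in Allantois (7 settings), Ventral hindbrain progenitors (4) and Cardiopharyngeal progenitors SHF (3). The exception was EMP, with 23.9 and 40.8 CPM at E8.5 and 53.9, 19.7, 58.4 and 35.4 CPM at E9.5, overlapping and not called (0.40).

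*Bnip3l* was below 0 in 31 of 31 types, with a median of -0.59, and fell by more than 1 in Cranial mesoderm (-1.13, adjusted p = 6.97e-09, edgeR), Optic vesicle (-1.02, adjusted p = 4.52e-10), Migratory neural crest (-1.01) and Branchial arch neural crest (-1.01). In Optic vesicle it was 374 and 364 CPM at E8.5 and 213, 207, 203 and 200 CPM at E9.5 in WT cells, and 373 and 404 CPM and then 221, 213, 243 and 248 CPM in null cells. Stages did not overlap in either genotype. Apart from Cranial mesoderm these calls lay close to the fold threshold and fell under it in some alternatives, in Branchial arch neural crest at -0.97 without E8.5 WT A, in Migratory neural crest at -0.89 without E8.5 WT B and in Optic vesicle at -0.92 in null cells, each still with an adjusted p under 0.05. In 26 of the 31 types every E9.5 WT library lay below every E8.5 WT library for *Bnip3l*. This held in 3 types for *Bid* and in fewer for each member other than *Bnip3*, and the share over all genes was not counted.

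In null cells, 19 types could be tested between these stages and 13 of 173 pairs were called, 3 higher and 10 lower, beside 2.88% of all pairs. *Bnip3* was below 0 in 19 of 19 types and called in 9, and *Bnip3l* was below 0 in 19 of 19 and called in 1. In the 18 types tested in both genotypes, the medians stood side by side at -1.06 in WT and -1.19 in null cells for *Bnip3* and at -0.64 and -0.65 for *Bnip3l*. *Bnip3* in null Cranial mesoderm was 116 and 139 CPM at E8.5 and 38.9, 31.3, 39.6 and 30.7 CPM at E9.5, without overlap.

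**Figure D3:**
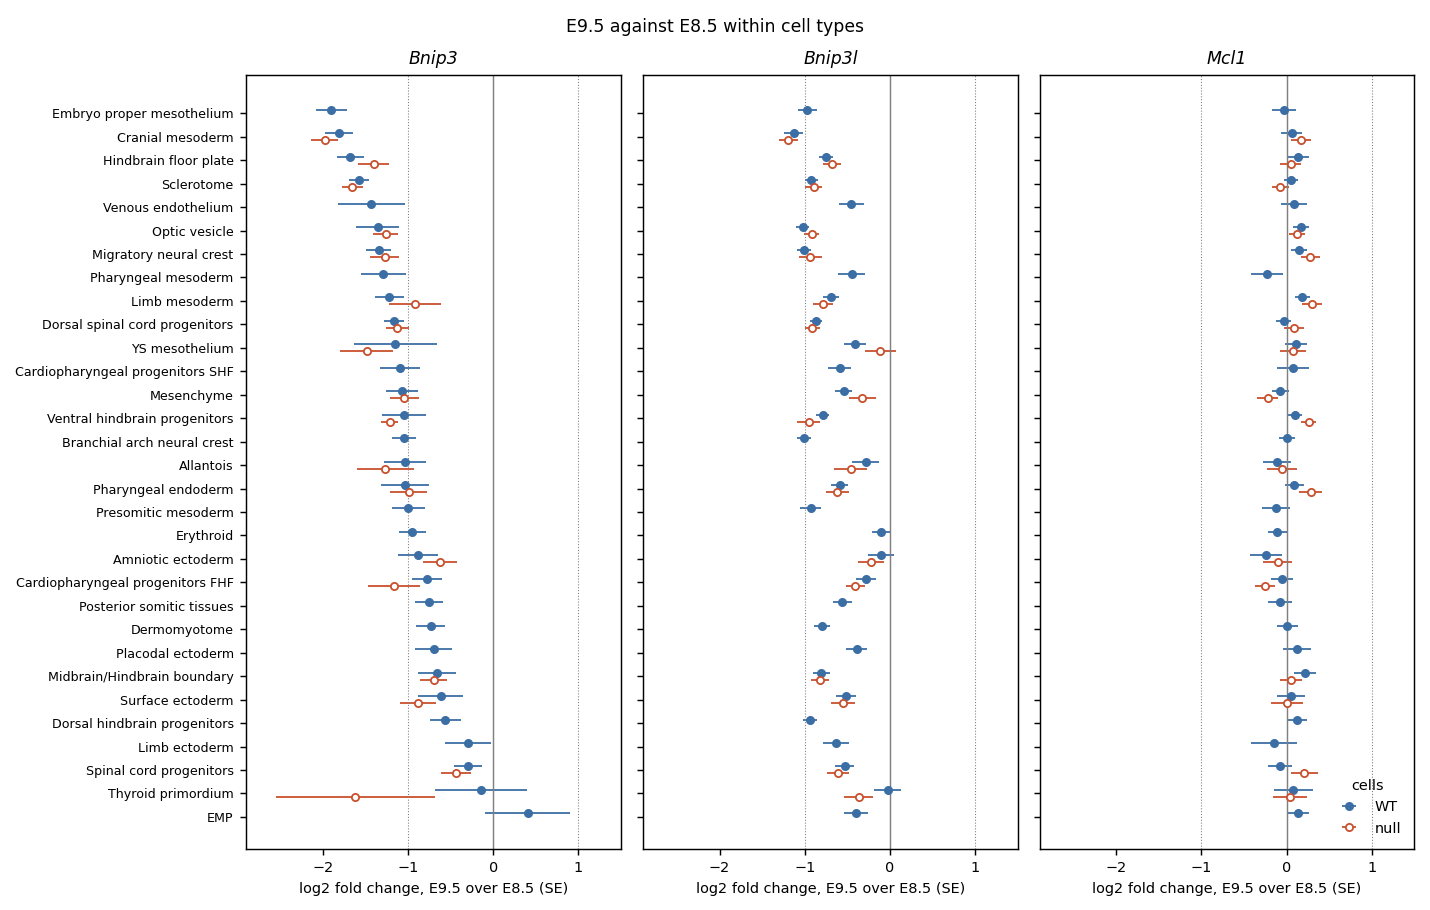
Log2 fold change of E9.5 over E8.5 (x axis) with its SE for *Bnip3*, *Bnip3l* and *Mcl1* in each cell type tested, with WT cells as filled and null cells as open points and dotted lines at -1 and 1. *Bnip3* lies below 0 in 30 of 31 types in WT cells, *Bnip3l* in 31 of 31, and *Mcl1* stays between -0.24 and 0.21 in WT cells.

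*Mcl1* was called in 0 of 31 types in this comparison, with no adjusted p under 0.05 with edgeR, and its estimates ran from -0.24 to 0.21 with a median of 0.05. *Bcl2* was above 0 in 26 of 28 types tested, with a median of 0.61, and was called in 3. In Optic vesicle it was 7.03 and 6.76 CPM at E8.5 and 17.8, 23.0, 19.4 and 20.7 CPM at E9.5 (1.38, SE 0.21, edgeR adjusted p = 4.75e-05). The stages did not overlap there, nor in null Optic vesicle cells, with 8.62 and 3.76 CPM and then 23.1, 21.4, 28.0 and 19.5 CPM (1.51). The calls in Dermomyotome (1.83) and Pharyngeal mesoderm (1.84) rested on few UMIs, 5 in Pharyngeal mesoderm at E8.5, and neither held in all leave-outs: without E8.5 WT A the adjusted p was 0.179 in Dermomyotome and 0.225 in Pharyngeal mesoderm. *Bcl2l2* was called in Sclerotome (2.01), on 4 UMIs at E8.5 against 138 at E9.5, and was -0.34 in null cells of that type.

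In WT Erythroid cells *Bid* fell and *Bcl2l11* rose between E8.5 and E9.5. Over the types tested, *Bid* was below 0 in 15 of 18 and *Bcl2l11* above 0 in 21 of 31. In these cells *Bid* was 6.02 and 14.4 CPM in WT Erythroid cells of E8.5 and 2.99, 0.908, 2.29 and 2.95 CPM at E9.5, without overlap (-1.70, SE 0.35, edgeR adjusted p = 0.00348). *Bcl2l11* was 3.80 and 5.26 CPM and then 6.77, 13.6, 7.64 and 8.06 CPM, also without overlap (1.08, SE 0.27, adjusted p = 0.0109); it fell under the fold threshold without E8.5 WT A (0.96) or E9.5 WT B (0.90), and with more than 50 cells a library it was 0.86 (adjusted p = 0.0506). *Bnip3* was 30.7 and 35.4 CPM and then 13.7, 19.98, 13.0 and 15.04 CPM (-0.95, adjusted p = 0.000902), below the fold threshold. *Bnip3l* (-0.10), *Mcl1* (-0.11) and *Bcl2l1* (0.27) were not called in these cells. The erythroid markers went in these cells from sums of 128092 and 205025 CPM to sums between 270697 and 304920 CPM. The Blood progenitor markers were 269 and 345 CPM at E8.5 and 196 to 239 CPM at E9.5, the Haematoendothelial progenitor markers 202 and 253 CPM and then 148 to 169 CPM, and the endothelium markers 44.2 and 62.9 CPM and then 25.7 to 36.3 CPM, all lower at E9.5 without overlap, and the maternal blood and macrophage markers were higher, at 572 and 618 CPM and then 830.1 to 1092 CPM. Markers of Megakaryocyte progenitors and of EMP overlapped between the stages. The part of these markers in the changes of *Bid* and *Bcl2l11* was not tested.

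Between E7.5 and E8.5 the test could be run in Lateral plate mesoderm and Mesenchyme only, and 0 of 19 pairs were called in WT cells, beside 8.55% of all pairs; DESeq2 also called 0, and 8 had an unadjusted p under 0.05. At any fold, 7 pairs had an adjusted p under 0.05 with edgeR, 1 higher and 6 lower (19.5% of all pairs passed). *Mcl1* was lower in both types (-0.51 and -0.40), as was *Bak1* (-0.65 and -0.60). *Bcl2l11* was lower in Mesenchyme (-0.86) and *Bad* in Lateral plate mesoderm (-0.63), where *Bnip3l* was higher (0.29). In null cells 1 of 18 pairs was called (6.9% of all pairs were), *Bcl2l11* in Mesenchyme (-1.20).

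Of 19 genes known to respond to hypoxia, 12 were lower and 0 higher at E9.5 than at E8.5 in whole WT libraries, where 41.6% of all genes were called, with a median of -0.51 beside 0.02 over all genes. Within cell types, 92 of 452 tests were lower and 0 higher (1.02% and 2.17% of all pairs were), from 14 of the genes, with a median of -0.64 beside 0.01. The glucose transporters led, with *Slc2a3* lower in 23 types and *Slc2a1* in 17, followed by the glycolytic enzymes *Pgk1* (11) and *Ldha* (10) and the pyruvate dehydrogenase kinase *Pdk1* (6). In whole libraries *Slc2a3* fell by 1.98 and *Slc2a1* by 1.54. In null cells 14 of the 19 were lower in whole libraries (40.1% of all genes were called), and 49 of 284 tests within types were lower and 1 higher (*Ddit4*), beside 2.88% of all pairs. Between E7.5 and E8.5 whole WT libraries gave 1 higher (*Pdk1*) and 5 lower, beside 39.3% of all genes. Between null and WT, 0 of these genes were called in any of the comparisons with edgeR, beside 0.0278% to 2.96% of all genes in whole libraries and 0.0609% to 0.186% of all pairs within types.

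Of 12 other BCL2 family genes tested between E8.5 and E9.5 in whole WT libraries, 3 were called, beside 41.6% of all genes. *Bbc3* (PUMA, 0.25) and *Bcl2a1b* (2.83) were higher and *Bax*, the other main effector, was lower (-0.41); within types 1 of 172 tests was higher and 2 were lower, beside 3.19% of all pairs. Between E7.5 and E8.5, *Bmf* (1.22) and *Bbc3* (0.67) were higher and *Pmaip1* (NOXA, -2.44), *Bcl2l14* (-1.73), *Hrk* (-1.21) and *Bok* (-0.41) lower, 6 of 10 tested, beside 39.3% of all genes. Between genotypes in whole libraries, *Bok* was lower in null libraries at E7.5 (-0.68), 1 of 10 tested beside 2.92% of all genes, and no other was called at any stage. The extra-embryonic markers that differed between the E7.5 libraries are given above with *Bak1*, and their part in this value was not tested.

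Among mitophagy and autophagy genes outside the family, 3 of 18 were higher at E9.5 than at E8.5 in whole WT libraries, namely *Pink1* (0.59), *Ulk1* (0.38) and *Map1lc3a* (0.21), and *Phb2* (-0.40) and *Map1lc3b* (-0.26) were lower. The median of the list was -0.10, beside 0.02 over all genes, of which 41.6% were called. Within types, 4 of 472 tests were higher and 0 lower, beside 2.17% and 1.02% of all pairs, with a median of 0.06 beside 0.01. Between genotypes 2 of 18 were called over all stages (2.96% of all genes were), *Pink1* (-0.29) and *Fkbp8* (-0.10), both lower in null libraries. At E7.5 it was 1 of 18 (2.92%), *Gabarapl1* (-0.88), where the same extra-embryonic markers differed. At E9.5 the erythroid markers were 224 to 592 CPM in null and 4990 to 15557 CPM in WT libraries. The part of these cells in the genotype values was not tested. Among the genes of the apoptosome, the caspases and their inhibitors that are reported here, *Casp6* (0.30) and *Birc2* (0.29) were higher at E9.5 than at E8.5 in whole WT libraries, and *Cycs* (cytochrome c, -0.46), *Vdac1* (-0.38), *Htra2* (-0.36), *Birc5* (-0.34) and *Vdac2* (-0.34) were lower. Only part of that list is reported here, so no count over it is given, and 41.6% of all genes were called in that comparison. *Cycs* was higher in null than in WT libraries over all stages (0.15, edgeR adjusted p = 0.0491), beside 2.96% of all genes called. The erythroid and extra-embryonic markers differ between these libraries too, and their part in this value was not tested.

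Levels across cell types are given as a description, because the type labels were transferred with genes of these same cells. At E9.5, 40 types had over 15 WT cells in 2 or more libraries. The blood types stood at the ends of the order for most members. Erythroid cells had the lowest level of *Bcl2*, *Bcl2l1*, *Bad*, *Bak1* and *Bnip3* among the 40 types and the second lowest of *Mcl1*, *Bcl2l11* and *Bid*.

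*Bcl2* in Erythroid cells was 0.897 and 0.795 CPM in the E8.5 WT libraries and 1.20, 0, 2.29 and 0.269 CPM at E9.5, against means of 10.6 and 18.3 CPM in all other cells. Even the highest Erythroid value, 2.29 CPM, lay far below those means, and the counts behind them were small, 10 UMIs in all at E9.5. *Bcl2l11* averaged 4.53 and 9.02 CPM in Erythroid cells of the 2 stages against 29.6 and 37.6 CPM elsewhere, and *Bak1* 12.3 and 9.25 CPM against 27.2 and 35.2 CPM. *Mcl1*, by contrast, was 126 against 121 CPM at E8.5 and 102 against 139 CPM at E9.5, and *Bnip3l* 239 against 310.4 CPM and 194 against 203 CPM. Hemoglobin transcripts are part of the total of Erythroid cells, whose marker sums reached 304920 CPM, and their part in these low levels was not tested. Ratios between members in the same cells do not carry that total.

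Within the 4 pro-survival genes, *Mcl1* made up 88.6% of UMIs in WT Erythroid cells of E8.5, pooled over libraries (87.6% and 89.8% in the 2 libraries), and 85.1% at E9.5 (81.8% to 85.8% over 4). In all other cells it was 82.1%, 77.3% and 73.5% from E7.5 to E9.5, the libraries lying between 80.7% and 82.9%, 77.0% and 77.5%, and 72.5% and 73.98%. *Bcl2* held 2.65% (2.38% and 3.18% in the libraries), 6.87% (5.83% and 7.80%) and 9.62% (9.02% to 10.5%) in other cells. In Erythroid cells it held 0.599% (0.549% and 0.643%) at E8.5 and 0.742% (0 to 2.16%) at E9.5, and in Blood progenitors of E7.5 0.882%. *Bcl2l1* held 13.1%, 13.6% and 14.4% in other cells and 10.1% and 12.5% in Erythroid cells, beside 6.69% in null Erythroid cells of E8.5 and 19.7% (exact binomial 95% interval 10.9 to 31.3 for counting error, 13 of 66 UMIs) in the 19 of E9.5.

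**Figure D4:**
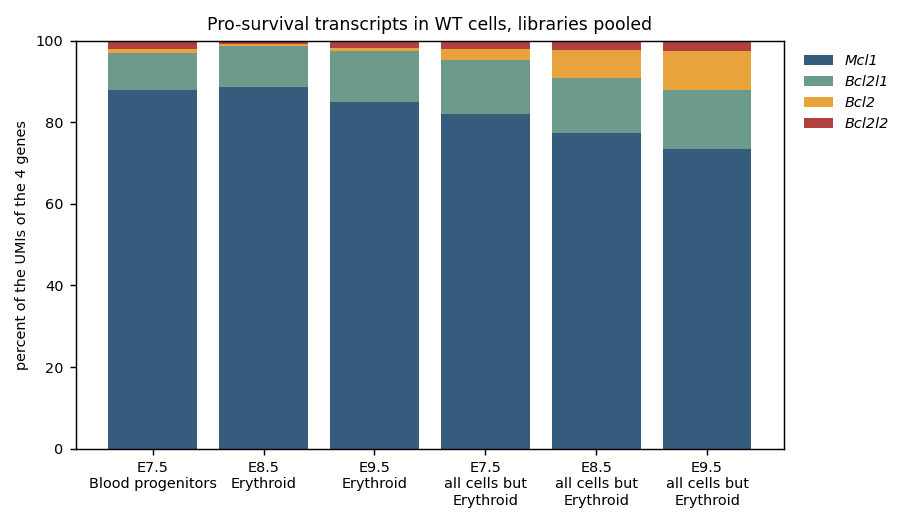
Share of each pro-survival gene in the UMIs of *Bcl2*, *Bcl2l1*, *Bcl2l2* and *Mcl1* (y axis, percent, stacked), in WT cells pooled over libraries, for Blood progenitors of E7.5, Erythroid cells of E8.5 and E9.5 and all cells but Erythroid at each stage. *Mcl1* is 85.1% in Erythroid cells of E9.5 against 73.5% in the other cells, and *Bcl2* 0.742% against 9.62%.

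Megakaryocyte progenitors, with 50 WT cells in 2 libraries at E9.5, were high in *Bcl2l1*, *Bad* and *Mcl1*, in which Erythroid cells were low. *Bcl2l1* was 66.3 and 67.6 CPM there, above every library of the next type, Thyroid primordium (46.7 ± 8.54 CPM, SD, n = 3), and its median type was at 27.3 CPM. *Bnip3l* averaged 382 ± 31.8 CPM (n = 2), also without overlap with the next type, and *Mcl1* 225 ± 26.5 CPM, near EMP (203 ± 10.5 CPM, n = 4), while *Bad* was 75.6 ± 5.69 CPM beside 70.7 ± 13.1 CPM in Allantois (n = 3). *Bcl2* (2.09 CPM, 3 UMIs), *Bcl2l11* (4.17 CPM, 6 UMIs) and *Bcl2l2* (1 UMI) were at or near their lowest in these cells. In *Bcl2* and *Bcl2l11* they were thus like Erythroid cells.

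*Bid* and *Bak1* were highest in EMP. *Bid* was 48.9, 46.5, 59.2 and 41.2 CPM in the 4 WT libraries, all above Megakaryocyte progenitors (28.6 ± 0.227 CPM, n = 2), which in turn lay above Placodal ectoderm (12.1 ± 3.31 CPM, n = 2). The median type was at 7.35 CPM, and YS mesothelium (1.67 CPM) and Erythroid (2.29 CPM) were lowest. EMP also had the highest *Bid* at E8.5 (32.5 CPM), and Blood progenitors at E7.5 (42.2 CPM). *Bak1* in EMP averaged 59.9 ± 6.26 CPM, overlapping Venous endothelium (50.1 ± 12.04 CPM, n = 3). *Bnip3l*, in contrast, was lowest in EMP (109 ± 5.94 CPM) and YS mesothelium (122 ± 9.75 CPM).

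Outside the blood, *Bcl2* was highest in Ventral forebrain progenitors (42.0 ± 5.48 CPM, n = 4) and Venous endothelium (40.3 ± 7.12 CPM, n = 3), which overlapped, followed by Dorsal hindbrain progenitors (28.9 ± 2.79 CPM, n = 4). *Bcl2l11* was highest in Thyroid primordium (61.9 ± 9.91 CPM, n = 3) and Placodal ectoderm (59.2 ± 5.67 CPM, n = 2), which also overlapped. *Bnip3* was highest in Epicardium (82.4 ± 26.7 CPM, n = 4) and Limb ectoderm (81.6 ± 6.68 CPM, n = 2), and *Mcl1* lowest in Limb ectoderm (86.8 ± 24.2 CPM, n = 2), next to Erythroid.

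**Figure D5:**
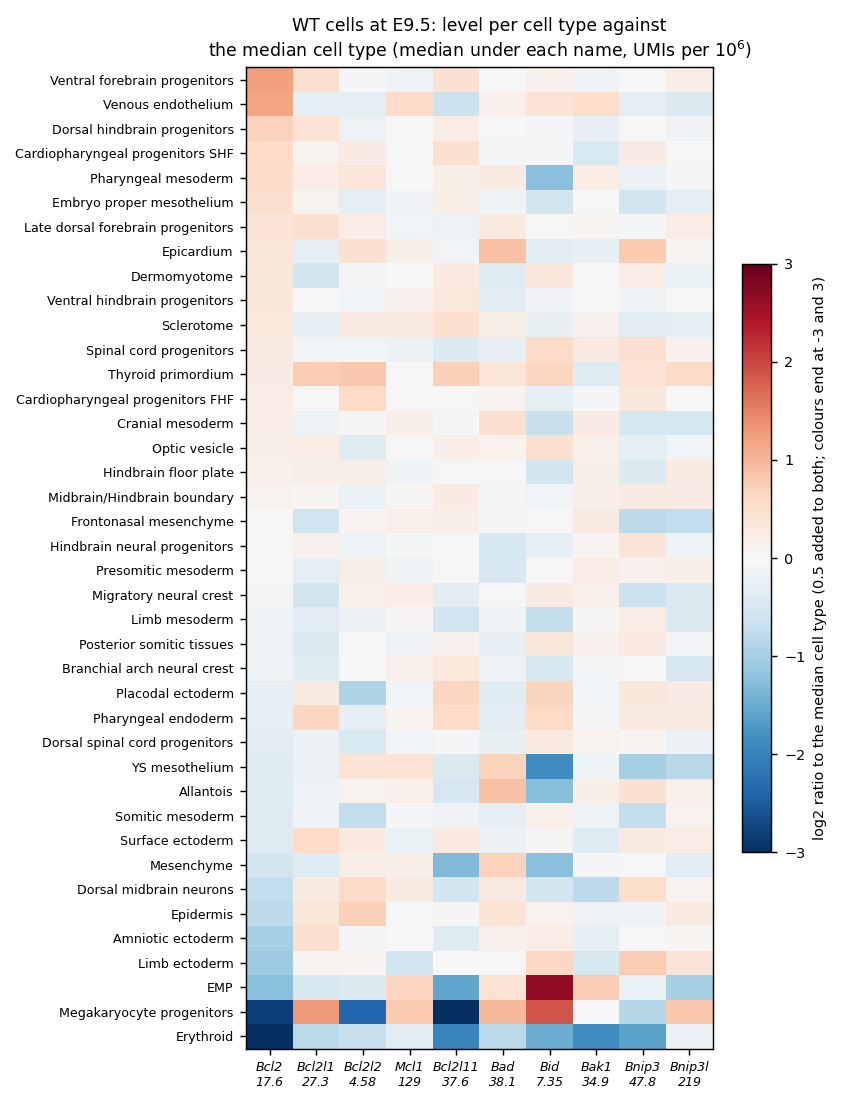
Level of each gene (columns) in 40 cell types (rows) of WT cells at E9.5, as the log2 ratio to its median type with 0.5 CPM added to both, the colors ending at -3 and 3 and the median in CPM under each name. Erythroid cells are lowest in *Bcl2* and *Bak1*, and EMP are highest in *Bid* (49.0 CPM against a median of 7.35).

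Over 72 cell types with 50 or more WT cells, the genes most like *Bcl2l1* by Spearman's rho among 11839 genes were *Wbscr27* (0.685), *Arf3* (0.665), *Pts* (0.658), *Exoc4* (0.656) and *Ino80d* (0.655). For *Bnip3l* they were *Mea1* (0.687), *Ccdc136* (0.685), *Klc3* (0.656), *Lurap1* (0.655) and *Ubl5* (0.653). These points share libraries, and types differ in depth, so the values are descriptions only.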

How the data were processed

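The authors made 10x 3′ v3 libraries with Cell Ranger on mm10, per the submitters' processing notes. They deposited UMI counts per gene and cell, cells of 10003 to 99964 UMIs that passed their quality filter, and a cell table with doublet calls, tdTomato status, transferred cell types and quality columns in percent. Of 192657 barcodes in that table, 41832 have counts. Library names matched the labels of 0 samples, so groups were taken from stage and genotype in the cell table, and the embryo pool of a library is not known; 0 columns of per-sample values were left unmatched.

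Counts were summed per library, and per library and cell type, after the study's gene filter (8178 genes left out, 21275 kept). The imprinted genes that the study also removed were not left out here. Tests were edgeR 4.0.16 quasi-likelihood fits (TMM, filterByExpr, robust) across all genes in R 4.3.3, adjusted by Benjamini-Hochberg over all genes of the fit, and were tested on simulated data. A call needed an adjusted p under 0.05 and, within cell types, an absolute log2 fold change over 1. The members are given by value in whole libraries over all stages and between stages, and elsewhere by count or range with those at the ends named, other genes where called, and cell types where a member was called or at the ends of its order. Alternatives were DESeq2 1.42.0, RLE factors, no low-count filter, more than 50 cells and no fold threshold. Others were equal weight a cell type, no blood or extra-embryonic types, and each library left out. Equal weight a cell type averaged log2(CPM + 1), with CPM of all UMIs and no TMM, over types and was fitted with limma-trend (limma 3.58.1). Leaving out shared barcodes and testing stages in null libraries were chosen after seeing the data. The members and lists were chosen with earlier results of these data known. Part of the list of apoptosome and caspase genes is not reported here.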

Additional observations from a re-analysis of the deposited data

Results flagged for a closer look

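Of 30 gene and group combinations with 4 libraries that were examined for a library far from the others, 3 stood out by Dixon's test (critical value 0.829); chance gives about 1 in 20. *Bak1* in E9.5 WT B was 36.6 CPM, with the other WT libraries of that stage at 33.7 to 34.0 CPM. *Bcl2l1* was also highest in E9.5 WT B, at 28.6 CPM against 26.0 to 26.4 CPM. *Bcl2l2* in E9.5 null A was 4.16 CPM, with the other null libraries at 4.56 to 4.63 CPM. The cause was not tested.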

How the results depend on the processing

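No paired analysis was possible because the library names match no label, so the embryo pool of a library is not known. The counts of members called between genotypes stayed at 0 under every alternative run other than 3 leave-outs, all in Thyroid primordium. These were without null A and without null B at E8.5 and without null A at E9.5. Each left 1 null library in that type.

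Calls with stage moved more. Between E7.5 and E8.5 in whole WT libraries, 3 members were called, 5 without blood and extra-embryonic types, and 1 (without E8.5 WT A) to 4 over the leave-outs. Within cell types that comparison gave 0 calls, 7 with no fold threshold, 1 in null libraries and 0 to 1 over the leave-outs (1 without E8.5 WT B). Between E8.5 and E9.5, whole WT libraries gave 4 to 7 over the leave-outs, and cell types gave 24, 59 with no fold threshold, 14 with more than 50 cells (108 pairs tested), 13 in null libraries and 14 to 24 over the leave-outs.

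Equal weight a cell type also replaced TMM by CPM of all UMIs and edgeR by limma-trend. With it the median of all genes moved by 0.16 between E8.5 and E9.5, and *Mcl1* there went from -0.12 to 0.16 (DESeq2 gave -0.13, adjusted p = 0.0150). Means of CPM over WT libraries, without equal weight, gave 0.18 for *Mcl1*. Between E7.5 and E8.5 *Bcl2l11* went from 0.20 to -0.53 with equal weight, and *Bcl2* was at 0.06. *Bcl2l2* in Sclerotome went from 2.01 in WT to -0.34 in null cells. Without blood and extra-embryonic types, *Bak1* (0.18, adjusted p = 0.0532) and *Bcl2l11* (0.16, adjusted p = 0.0620) were no longer called between E8.5 and E9.5 in whole libraries, by edgeR. *Bcl2* in Pharyngeal mesoderm was lost without the shared barcodes (adjusted p = 0.0647), and *Bcl2* in Dermomyotome (0.0558) and *Bcl2l2* in Sclerotome (0.154) were lost with DESeq2. *Bnip3* in whole libraries stayed between -1.13 and -0.94 and *Bnip3l* between -0.86 and -0.59 between E8.5 and E9.5 under every alternative run. The cause of these differences was not tested. *Bcl2l2*, and *Bcl2* at E8.5, rest on few UMIs in small cell types, which limits what could be detected.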
